A study of Homo sapiens with 36 samples.

Results

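The clustered protocadherins are the cell-surface adhesion proteins encoded by the alpha, beta and gamma arrays on chromosome 5. They were taken as every row whose symbol is PCDHA, PCDHB or PCDHG followed by an isoform number, the alpha C-types PCDHAC1 and PCDHAC2, and the gamma C-types PCDHGC3, PCDHGC4 and PCDHGC5, and no measured value entered that choice. This gave 54 of the 62710 gene rows, namely 16 alpha, 16 beta and 22 gamma members. All 54 lie on the plus strand of chromosome 5 between positions 140786136 and 141512981 of GRCh38 in GENCODE 29, and all are annotated as protein-coding except PCDHA14, a transcribed pseudogene.

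The study sequenced total RNA, depleted of ribosomal RNA, from H9 human embryonic stem cells that were turned into neurons (iNeurons) by doxycycline-dependent expression of the transcription factor NGN2. Cells with no RAI1 mutation (WT), with the label RAI1 Het (HET) and with the label RAI1 Knockout (KO) were collected on day 0, day 3 and day 7. Each of the 9 genotype-day groups had 4 libraries, labelled biological replicates, in 1 labelled batch. The labels do not name independent clones for HET or KO, so the genotype and the history of the edited line cannot be told apart, and the p-values below measure the spread between these libraries only.

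Each alpha or gamma isoform is made from its own variable exon, with its own promoter, spliced to constant exons that the whole array shares, whereas each beta gene is complete in itself. A neuron switches on a small, largely random subset of the alternate isoforms, and the combination gives the cell a surface identity by which it recognises its own branches; the C-type isoforms are less subject to that random choice. Promoter choice is known to depend on DNA methylation and on CTCF, a DNA-binding protein that anchors chromatin loops and binds a conserved promoter element whose core is CGCT.

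Because choice is made at promoters, the promoter letters of members on which the results turn are shown here, as the 90 bases from 100 to 11 before the RefSeq start in the GRCh38.p14 table, plus strand, 5′ to 3′, with CGCT in capitals:
PCDHA6, chr5:140827860-140827949: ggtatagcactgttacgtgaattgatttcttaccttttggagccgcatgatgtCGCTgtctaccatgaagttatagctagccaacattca
PCDHA10, chr5:140855797-140855886: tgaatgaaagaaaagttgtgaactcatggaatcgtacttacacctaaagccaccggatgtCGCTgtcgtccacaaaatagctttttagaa
PCDHA12, chr5:140875208-140875297: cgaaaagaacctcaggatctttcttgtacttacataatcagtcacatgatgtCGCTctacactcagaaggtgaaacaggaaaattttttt
PCDHB13, chr5:141213819-141213908: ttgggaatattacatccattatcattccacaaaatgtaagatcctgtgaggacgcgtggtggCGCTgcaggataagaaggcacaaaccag
PCDHGB4, chr5:141387598-141387687: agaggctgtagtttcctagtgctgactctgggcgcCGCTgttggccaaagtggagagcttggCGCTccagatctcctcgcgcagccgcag
PCDHGA10, chr5:141412887-141412976: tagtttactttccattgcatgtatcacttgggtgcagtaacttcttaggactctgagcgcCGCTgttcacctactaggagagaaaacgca
PCDHGB6, chr5:141407921-141408010: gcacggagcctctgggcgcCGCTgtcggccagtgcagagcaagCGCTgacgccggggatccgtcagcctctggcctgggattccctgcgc
PCDHGC3, chr5:141475866-141475955: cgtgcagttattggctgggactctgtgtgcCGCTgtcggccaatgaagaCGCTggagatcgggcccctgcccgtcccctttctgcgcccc
PCDHGC4, chr5:141484930-141485019: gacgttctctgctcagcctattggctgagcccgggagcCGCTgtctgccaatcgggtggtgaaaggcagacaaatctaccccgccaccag
A window was given for 47 of the 54 members; PCDHA3, PCDHA13, PCDHA14, PCDHB6, PCDHB11, PCDHGA12 and PCDHGC5 had none. CGCT stood on the gene's strand in 43 of the 47 windows (91.5%), compared with 25.4% of the same windows before all 35097 RefSeq starts. On either strand the shares were 91.5% and 41.8%. These letters were searched alone, so a hit, also where capitals mark it above, need not lie in the conserved element. Binding of CTCF was not measured. The windows without CGCT were those of PCDHA9, PCDHB5, PCDHB8 and PCDHGB2, which does not show that their promoters lack it. The PCDHB5 window ends in ggtggc, the first letters of GGTGGCGCT, and letters past that edge were not searched. For PCDHA9 and PCDHGB2, 90 and 84 of the 90 bases lay inside GENCODE 29 exons of the gene itself. The letters around the core differed by array. GATGTCGCT was found on the gene's strand in 9 of 13 alpha windows (69.2%) and in no beta or gamma window, and GGTGGCGCT in 11 of 14 beta windows (78.6%) and in no alpha or gamma window. On the gene's strand, these longer strings occurred in 0.0313% and 0.128% of all promoters, and on either strand in 0.0342% and 0.191%. Both contain CGCT, and both were picked after the members' letters had been seen. Of the members described below, PCDHA6, which fell in HET, PCDHA12, which rose in HET, and PCDHA10, which rose in KO, are among the 9 with GATGTCGCT. PCDHA11, which also fell in HET, has CGCT in its window but not the longer string. Any part of these letters in the changes was not tested.

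Library totals ran from 23.95 to 56.68 M counts. RAI1, the targeted gene, was not lower in the mutant libraries: its mean was 36.1 ± 8.99 CPM (each library's counts scaled to the same total; SD, n = 4) in WT, 41.5 ± 8.99 in HET and 40.3 ± 14.1 in KO at day 0, and 48.4 ± 14.1, 70.4 ± 19.2 and 78.4 ± 11.9 CPM at day 7, where KO was called higher (log2 fold change 0.69, SE 0.22, adjusted p = 0.0296, edgeR). Gene-level RNA therefore does not check the genotype labels. The summed level of 10 neuronal markers at day 3 ran from 1400 to 1910 CPM in WT, 2000 to 4790 in HET and 4690 to 9320 in KO, and at day 7 from 5520 to 11100, 11200 to 15200 and 12300 to 15100; all 10 were above 3 counts in every group. At day 0 the ranges overlapped (318 to 590, 436 to 690 and 402 to 814 CPM). The level of 6 pluripotency markers at day 7 ran from 46.3 to 62.4 CPM in WT, 57 to 150 in HET and 215 to 281 in KO, and that of 6 neural progenitor markers from 730 to 824, 570 to 850 and 426 to 492 CPM. A set of 5 abundant structural RNAs took 2.84% to 27.5% of a library, which moves TPM (a level corrected for transcript length and scaled to the library) between libraries. Fold changes and calls, unless another method is named, therefore come from counts with trimmed-mean scaling, and TPM is used for shares within an array. The CPM values, their sums and the overlaps judged on them use the plain library total, so the structural RNA share moves them too.

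During induction of the WT cells most members that passed the test rose, and nearly all of the beta array did. From day 0 to day 3, 29 of 54 were called higher and 3 lower by edgeR's quasi-likelihood test (Benjamini-Hochberg adjusted p under 0.05 over all genes), where 31.2% of all genes were called higher and 28.7% lower (60.0% either way). In the beta array 14 of 16 rose, with a median log2 fold change of 1.61 beside 0.07 over all genes; in the alpha array 8 rose and 2 fell (median 0.42), and in the gamma array 7 rose and 1 fell (median 0.22). On the log2(TPM + 1) scale, where the median of all genes shifted by -0.312, limma called 1 member higher and 6 lower, so the direction over the family in this interval depends on the scale. From day 3 to day 7, 31 rose and 1 (PCDHB1) fell, against 23.3% and 22.9% of all genes (46.2% either way), with 14 of 16 beta, 11 of 16 alpha and 6 of 22 gamma members rising and a median of 0.96 over the 54. In bulk RNA, a larger share of cells making an isoform and more RNA per cell cannot be told apart.

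The summed alpha level was 97 ± 4.66 CPM at day 0 and 214 ± 15.4 CPM at day 7 in WT, the beta sum 37.8 ± 3.6 and 196 ± 29.2 CPM, and the gamma sum 210 ± 25.3 and 402 ± 115 CPM (SD, n = 4 each). PCDHGB6, a B-type gamma isoform, held the largest share of the gamma array's TPM at day 7, 63.5% ± 2.89, after 28.5% ± 0.806 at day 0. PCDHGB7, its neighbour by name and the leading gamma isoform at day 0, went from 33.8% ± 2.21 to 10.8% ± 1.3 of the gamma TPM. Its own level did not pass the test in either interval (log2 fold change -0.20, SE 0.2, and -0.33, SE 0.2). PCDHGC4, a C-type isoform known to be needed for the survival of some neurons, fell by 0.94 on the log2 scale by day 3 (SE 0.25, adjusted p = 0.00441). PCDHAC1, the first alpha C-type, rose in both intervals, by 0.70 (SE 0.21) and 2.05 (SE 0.22), and PCDHA4 by 1.13 (SE 0.15) and 1.12 (SE 0.15). PCDHB2, the leading beta isoform throughout, rose by 1.41 (SE 0.18) and 0.89 (SE 0.18).

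**Figure D1:**
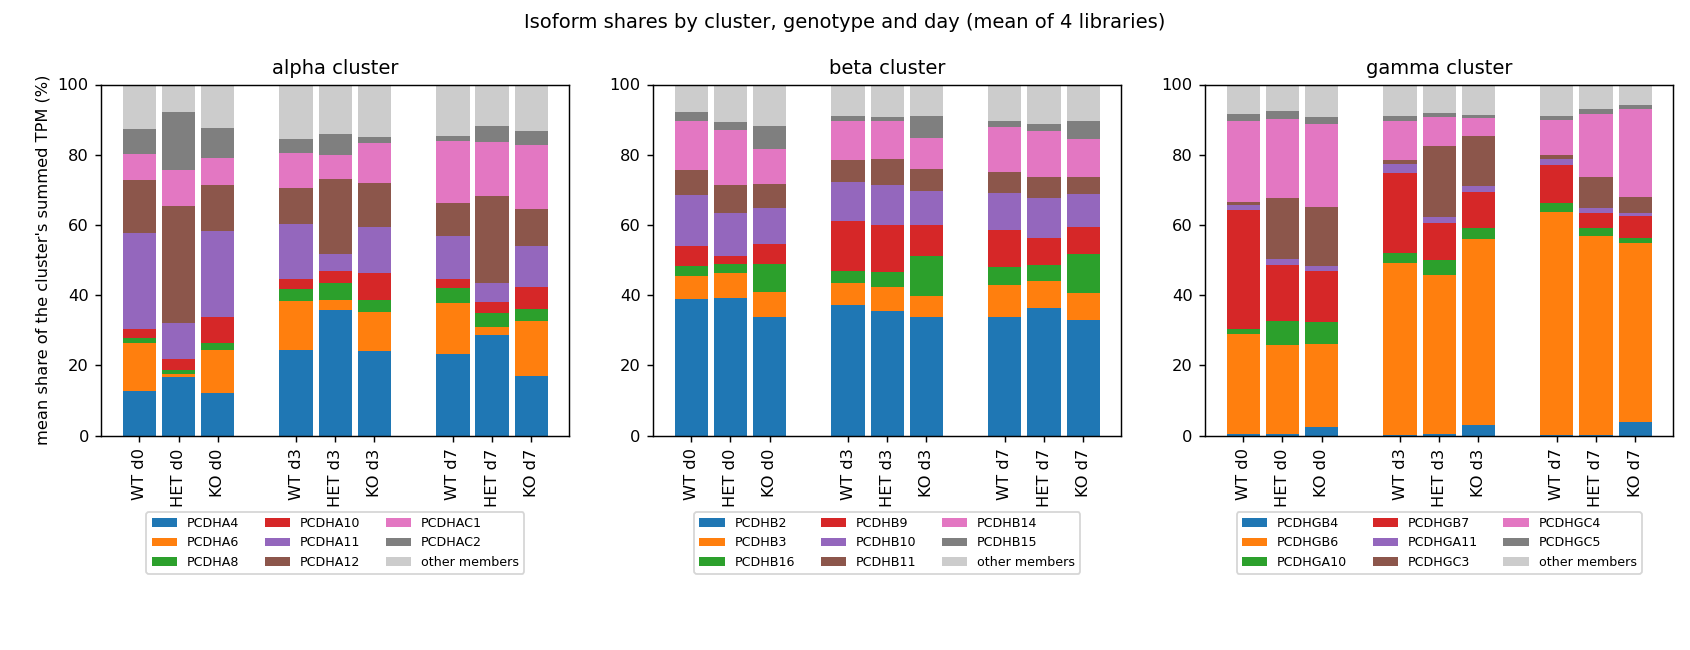
Mean share of each array's summed TPM (vertical axis, %) held by its leading members in the 9 genotype-day groups (horizontal axis, 4 libraries each), with the remaining members in light grey. PCDHGC3 fills 1.02% of the gamma bar in WT at day 0 and 17.4% and 16.9% in HET and KO, while PCDHA6 fills 13.6% of the alpha bar in WT and 0.961% in HET.

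Isoform shares, C-types included, differed from WT in the alpha and gamma arrays in HET, and mainly in the gamma array in KO. To describe this, the TPM of each member was divided by the sum over its array in the same library, and the distance of a mutant library from WT was taken as 50% of the summed absolute differences between its shares and the mean shares of the 4 WT libraries of that day; 0% means identical shares and 100% means no isoform in common. The background is each WT library against the mean of the other 3, and the distance is a description with no test. In the alpha array the HET libraries stood 35.9% ± 2.3, 28.6% ± 3.12 and 27.1% ± 3.25 from WT at days 0, 3 and 7, where WT stood 6.84% ± 1.0, 9.39% ± 3.51 and 8.85% ± 0.993 from itself. HET and WT values did not overlap on any day. The KO alpha distances, 9.4% ± 0.916, 10.4% ± 0.765 and 11.4% ± 1.37, lay close to the WT background. They cleared it at day 0 and overlapped it at days 3 and 7, and which days were clear depended on the setting. Without WT replicate 3 they overlapped at day 0, without WT replicate 4 they did not at day 3, and without WT replicate 3, WT replicate 4 or KO replicate 4, or by shares of counts, they did not at day 7.

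In the gamma array both lines stood clear of WT on all 3 days, HET at 24.2% ± 2.35, 21.7% ± 2.19 and 16.6% ± 5.28 and KO at 26.5% ± 3.64, 21.2% ± 1.56 and 22.6% ± 2.16, beside a WT background of 4.82% ± 2.14, 3.94% ± 0.473 and 5.31% ± 1.76. In the beta array the HET libraries, at 9.75% ± 0.722, 7.68% ± 1.96 and 7.84% ± 3.96, overlapped the WT background (10.0% ± 0.821, 8.84% ± 4.06 and 9.61% ± 5.51) on every day. The KO libraries, at 16.4% ± 3.23, 14.5% ± 2.25 and 11% ± 2.23, lay above it at day 0 and overlapped it later; they overlapped it at day 0 without WT replicate 1, 2 or 3, and cleared it at day 3 without WT replicate 1 or 2 or by shares of counts, and at day 7 without WT replicate 1.

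**Figure D2:**
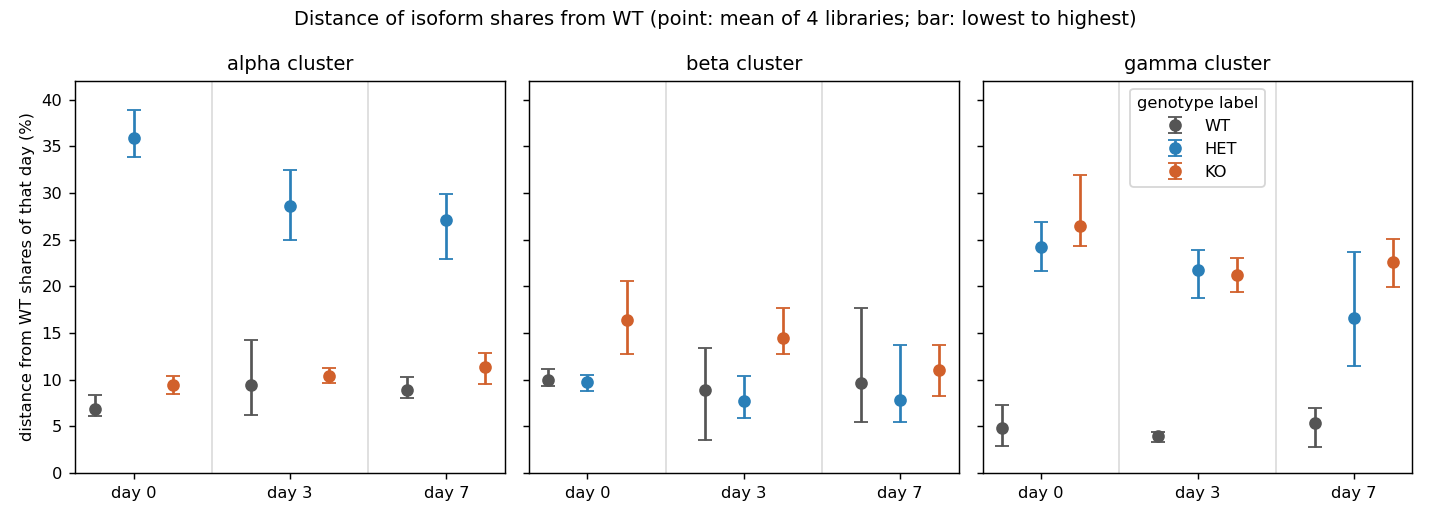
Distance of isoform shares from the WT mean of the same day (vertical axis, %) for each array, by day (horizontal axis) and genotype label; points are means of 4 libraries and bars run from the lowest to the highest library. The HET alpha values (22.9% to 38.9%) and the gamma values of both lines (11.5% to 31.9%) lie above every WT value of their day.

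The leading isoforms changed accordingly. At day 0 the alpha TPM of WT was led by PCDHA11 (27.5% ± 2.16), PCDHA12 (15.0% ± 1.45) and PCDHA6 (13.6% ± 1.41), and that of KO by the same members in the same order (24.3% ± 1.91, 13.2% ± 1.16 and 12.4% ± 1.24). The HET alpha TPM was led instead by PCDHA12 (33.4% ± 3.47), PCDHA4 (16.7% ± 2.15) and PCDHAC2 (16.4% ± 4.22). The gamma TPM of WT at day 0 was led by PCDHGB7, PCDHGB6 and PCDHGC4, which together held 85.3%. In both mutant lines PCDHGB6 and PCDHGC4 led and PCDHGC3 followed, with 17.4% ± 1.08 in HET and 16.9% ± 1.69 in KO. PCDHB2 led the beta TPM in every group, between 32.9% and 39.3%.

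Tested gene by gene, 13.5% of the tested members were called in HET at day 0 and 7.55% at day 3. Of all genes, 1.63% and 3.28% were called either way. At day 0, 3 of 52 tested members were higher and 4 lower in HET than in WT, where 1.22% of all genes were higher and 0.411% lower. The alpha array held 5 of these calls (PCDHA12 higher; PCDHA2, PCDHA3, PCDHA6 and PCDHA11 lower), the gamma array 2 (PCDHGA10 and PCDHGC3, higher) and the beta array 0 of 14, where 1 was at an unadjusted p under 0.05 and DESeq2 called 0. At day 3, 2 were higher and 2 lower of 53 (all genes, 2.52% and 0.761%), with 0 of 15 in the beta array by edgeR, by DESeq2 and at an unadjusted p under 0.05. At day 7, 10 were higher and 3 lower of 53 (8.31% and 6.1%). Same-numbered HET and WT libraries of day 3 deviated together, with correlations of 0.168 to 0.801, but only 4 of 8 libraries correlated best with their own number. With the replicate number as a block, 3 were higher and 6 lower at day 3. DESeq2 called 3 higher and 4 lower at day 3, and limma on log2(TPM + 1) called 4, 1 and 1 members at days 0, 3 and 7. The day 7 count of 13 calls became 8 without HET replicate 2 and 7 without HET replicate 3.

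The KO line had calls in all 3 arrays, nearly all upward. At day 0, 9 of 52 members were higher and 0 lower than in WT (all genes, 1.66% and 0.416%), with a median log2 fold change of 0.50 beside 0.01 over all genes; 1 was lower at an unadjusted p under 0.05 and by DESeq2. At day 3, 21 of 53 were higher and 0 lower (12.6% and 8.93%; median 0.88 beside -0.05), with 2 lower at an unadjusted p under 0.05 and 0 by DESeq2. At day 7, 21 were higher and 1 lower (17.0% and 15.6%, 32.6% either way; median 0.35 beside -0.04). Same-numbered KO and WT libraries deviated together at days 0 and 3, where 8 and 6 of 8 libraries correlated best with their own number. With the replicate number as a block the day 3 counts were 34 higher and 1 lower. Library-size scaling in place of the trimmed mean called 13 at day 3, and limma on log2(TPM + 1) called 5 at day 3 and 6 at day 7, all higher. The 21 calls of day 3 became 9 without KO replicate 1, 12 without KO replicate 2, 11 without WT replicate 3 and 10 without WT replicate 4. The HET and KO comparisons of a day share their WT libraries, so their values are set side by side, and differences between the lines are taken from the test of KO against HET. The neuronal marker levels given above separated both mutant lines from WT at days 3 and 7 and not at day 0, while HET and KO overlapped on each day, and their part in these counts was not tested.

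**Figure D3:**
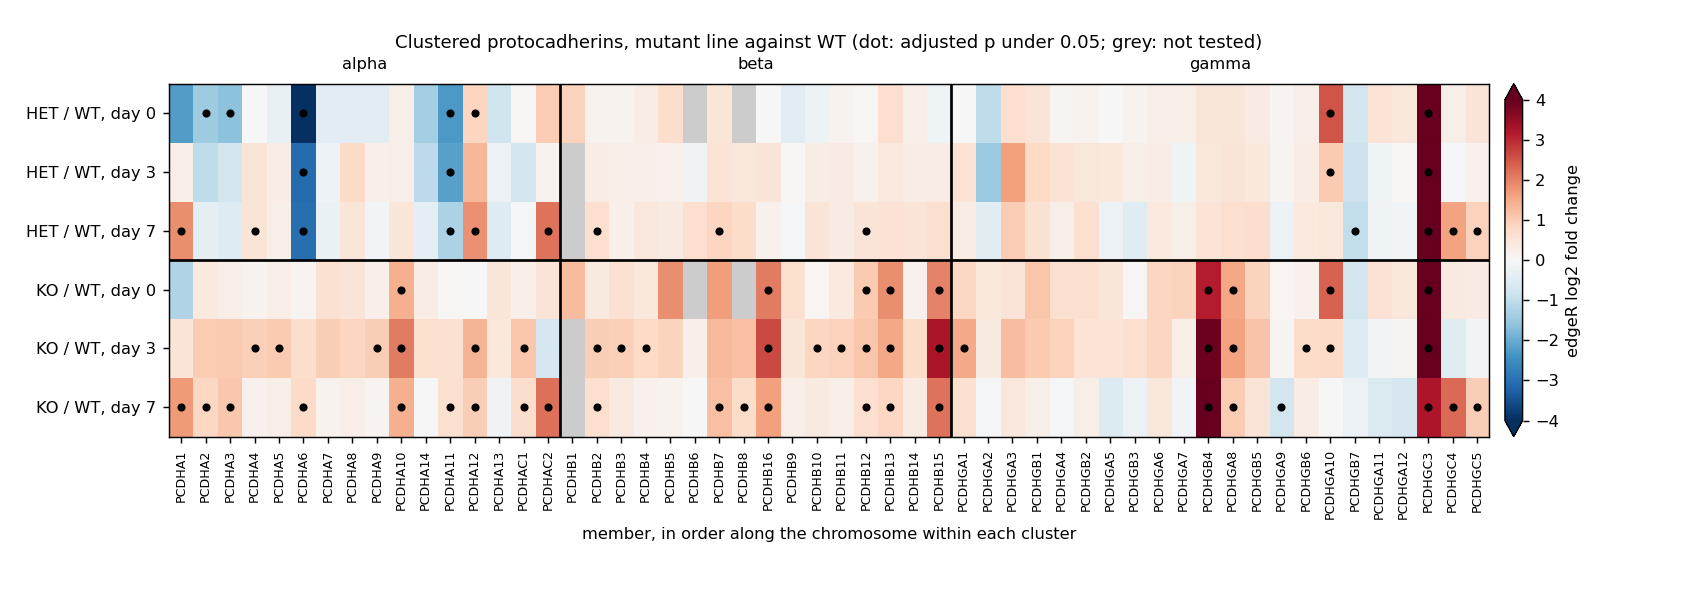
Log2 fold change against WT of the same day (colour) for all 54 members, in chromosomal order within each array (horizontal axis), in 6 comparisons (vertical axis); dots mark adjusted p under 0.05 and grey cells were not tested. PCDHGC3 is high in every row, PCDHGB4 only in the KO rows, and PCDHA6 and PCDHA11 are blue only in the HET rows.

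Across the 3 days, which share no libraries, PCDHGC3 was called higher in HET every time, and PCDHA6 and PCDHA11 were called lower. In KO, 8 members were called higher on every day: PCDHA10, PCDHB12, PCDHB13, PCDHB15, PCDHB16, PCDHGA8, PCDHGB4 and PCDHGC3. Leaving out 1 library at day 0 gave 7 or 8 KO calls in each of 8 fits. PCDHA10, PCDHB13, PCDHB15, PCDHB16, PCDHGA10, PCDHGB4 and PCDHGC3 were called in all of them. PCDHB12 and PCDHGA8 were therefore never both called at day 0 in those fits. Of all 18387 genes tested on each day, 0.517% were called higher and 0.152% lower in HET on every day, and 0.848% higher in KO; the members counted here are among 51 tested on each day. Over any day, 11 of 54 members were called higher and 5 lower in HET, and 31 higher and 1 lower in KO, where 9.13% and 6.08%, and 22.3% and 19.6%, of the 24111 genes tested on any day were.

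Tested directly against each other, the lines differed mainly in the alpha array. At day 0, 9 of 52 members were higher in KO than in HET (PCDHA2, PCDHA3, PCDHA6, PCDHA10, PCDHA11, PCDHB15, PCDHB16, PCDHGA2 and PCDHGB4) and 1 was lower (PCDHA12), where 0.524% and 0.333% of all genes were called (0.856% either way). At day 3, 8 of 53 were higher and 0 lower (2.77% and 1.58%, 4.35% either way), with 1 lower at an unadjusted p under 0.05 and 0 by DESeq2; PCDHAC1 joined and PCDHA3 and PCDHGA2 left. At day 7, 8 of 53 were higher and 0 lower (0.668% and 0.737%, 1.4% either way), with 5 lower at an unadjusted p under 0.05 and 2 by DESeq2. The change of the KO-WT difference between days passed for 2 of 54 members from day 0 to day 3 (1 grew and 1 shrank; all genes 5.37% and 3.19%, 8.55% either way) and for 6 from day 3 to day 7 (3 and 3; all genes 7.6% and 10.9%, 18.5% either way). The day 3 count of KO against HET became 13 without KO replicate 4, and the day 7 count 5 without HET replicate 4. Of the counts of change between days, the first became 4 without KO day 3 replicate 4 and 1 without any other of the 16 libraries except KO day 0 replicate 2 and WT day 3 replicate 2. The second became 11 without KO day 3 replicate 4 and 3 without KO day 7 replicate 3, WT day 3 replicate 4 or WT day 7 replicate 1.

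PCDHGC3, the gamma C-type that is known to bind the Wnt pathway scaffold Axin1, had the largest difference of the family and was shared by both lines. At day 0 its 4 WT libraries gave 0.474, 0.848, 1.24 and 1.09 CPM, its HET libraries 65.5, 43.9, 43.6 and 32.2 CPM, and its KO libraries 33.03, 61.9, 54.4 and 40.7 CPM. Every mutant library was far above every WT library. The log2 fold change was 5.67 in HET (SE 0.32, edgeR adjusted p = 3.29e-07) and 5.72 in KO (SE 0.32, adjusted p = 2.71e-07), resting on 16 to 48 counts per WT library and 1044 to 2237 per HET library.

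The contrast persisted through induction. At day 3 the WT libraries gave 2.49, 1.47, 1.52 and 1.48 CPM, the HET libraries 61.9, 67.2, 61.2 and 52.9 CPM and the KO libraries 46.1, 67.2, 43.6 and 55.2 CPM. At day 7 the values were 1.89, 3.10, 1.41 and 3.05 CPM in WT, 57.6, 47.5, 37.2 and 56.9 CPM in HET, and 14.5, 24.4, 19.8 and 29.2 CPM in KO. The groups of mutant and WT libraries stayed apart, while KO had come down below HET at day 7 with no overlap. The log2 fold changes over WT were 5.13 (SE 0.21) and 4.39 (SE 0.32) in HET and 4.94 (SE 0.21) and 3.22 (SE 0.3) in KO. KO and HET did not differ past the threshold on any day (log2 0.05, -0.19 and -1.17; adjusted p = 0.0638 at day 7), but the KO-WT difference itself narrowed from day 3 to day 7 by 1.74 on the log2 scale (SE 0.38, adjusted p = 0.00104).

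PCDHGB4, a B-type gamma isoform, was higher in KO and not called in HET. At day 0 it had 0.563, 0.998, 0.800 and 0.676 CPM in WT, 1.38, 1.16, 0.835 and 0.812 CPM in HET, and 12.2, 5.60, 4.75 and 4.16 CPM in KO. At day 7 it had 0.529, 1.22, 0.742 and 1.09 CPM in WT, 0.727, 1.38, 1.28 and 2.17 CPM in HET, and 46.3, 18.5, 20.6 and 11.9 CPM in KO. WT and HET overlapped, and all KO libraries lay above both. The KO-WT log2 fold changes were 3.15 (SE 0.36), 3.93 (SE 0.45) and 4.77 (SE 0.46) at days 0, 3 and 7, and the KO-HET ones 2.68, 3.49 and 4.22 (adjusted p = 0.00139, 0.000774 and 0.000317, edgeR). In HET against WT they were 0.47, 0.44 and 0.55, none called. KO replicate 1 was the highest of the KO libraries on each day.

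PCDHGA8, whose exons overlap those of PCDHGB4 (51.3% and 64.4% of their exon bases are shared with other members), rose less and from a lower level. Its KO libraries at day 0 had 1.502, 1.25, 1.16 and 1.38 CPM, above 0.237 to 0.619 CPM in WT, a log2 fold change of 1.55 (SE 0.36, adjusted p = 0.0486). How reads of the shared bases were split between these genes was not tested. Its day 3 call in KO (log2 1.62, SE 0.45, adjusted p = 0.0208) was lost without KO replicate 1 (1.07) and without WT replicate 4, with an adjusted p of up to 0.0852.

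PCDHGA10, an A-type gamma isoform, was higher in both lines at day 0 and not called in either at day 7. At day 0 its WT libraries had 2.58, 4.34, 4.39 and 3.06 CPM, its HET libraries 24.4, 23.4, 20.5 and 13.6 CPM, and its KO libraries 17.96, 20.8, 19.7 and 14.4 CPM. At day 7 the libraries had 10.8, 10.9, 6.28 and 9.14 CPM in WT, 9.96, 15.4, 11.7 and 15.0 CPM in HET, and 9.64, 7.64, 8.83 and 10.8 CPM in KO. The groups were separate at day 0 and overlapped at day 7, WT having risen by 1.15 (SE 0.22) from day 0 to day 3. The log2 fold changes were 2.52 (SE 0.22), 1.05 (SE 0.2) and 0.44 (SE 0.18, not called) in HET and 2.36 (SE 0.22), 0.76 (SE 0.2) and 0.00 in KO. The narrowing was itself tested in KO (in HET it was not tested) and passed in both intervals (-1.55, SE 0.28, adjusted p = 0.0005, and -0.79, SE 0.28, adjusted p = 0.0422). The first held without any 1 of 16 libraries; the second was lost in 12 of 16 such fits, with an adjusted p of up to 0.154, and with library-size scaling (0.102).

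PCDHGC4 and PCDHGC5, the other gamma C-types, and PCDHAC2, the second alpha C-type, known for its role in serotonergic neurons, had higher values in both mutant lines at day 7. PCDHGC4 had 18.6, 36.5, 38.6 and 36.1 CPM in WT at day 7, 76.7, 123, 157 and 64.0 CPM in HET, and 115, 165, 211 and 135 CPM in KO. All mutant libraries were above all WT libraries, with log2 fold changes of 1.61 (SE 0.29) in HET and 2.25 (SE 0.3) in KO; at days 0 and 3 neither was called. For PCDHAC2 the day 7 values were 1.84, 2.65, 3.49 and 2.75 CPM in WT, 6.24, 20.1, 19.0 and 7.41 CPM in HET, and 13.3, 13.2, 15.1 and 8.39 CPM in KO. These groups too were separate (log2 2.17, SE 0.35, and 2.20, SE 0.35), and the HET libraries fell into a high pair (replicates 2 and 3) and a low pair. The structural RNA share of HET replicates 2 and 3 was 2.84% and 4.17%, and that of replicates 1 and 4 was 27.5% and 13.4%; their summed member level followed the same split (1388 and 1383 CPM against 853.8 and 1055). In KO at day 3 the member sum was likewise 1029 and 1048 CPM in replicates 1 and 2, with shares of 4.92% and 3.54%, and 714.8 and 528 in replicates 3 and 4, with 14.9% and 18.8%. With that share as a covariate, the PCDHAC2 fold changes at day 7 were 1.65 (SE 0.3) in HET and 1.77 (SE 0.3) in KO, both called, and the counts over the family were 8 higher and 4 lower in HET at day 7 and 19 higher and 1 lower in KO at day 3.

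PCDHGC5 rose by 0.91 (SE 0.24) in HET and 0.98 (SE 0.24) in KO at day 7; the HET call was lost without HET replicate 3, WT replicate 1 or WT replicate 2, with an adjusted p of up to 0.0745. The change of the KO-WT difference from day 3 to day 7 passed the test for PCDHAC2 (2.83, SE 0.45), PCDHGC4 (2.72, SE 0.42) and PCDHGC5 (1.07, SE 0.34); that of PCDHGC5 was lost without WT day 3 replicate 1 or 4, WT day 7 replicate 1 or KO day 7 replicate 3 or 4, with an adjusted p of up to 0.0771. PCDHAC1 differed from the other alpha C-type. It was higher in KO at day 3 (log2 1.12, SE 0.2) and day 7 (0.70, SE 0.19) but not called in HET (-0.74, SE 0.2, adjusted p = 0.0617, and -0.09, SE 0.19). Its KO day 7 adjusted p was 0.0589 without KO replicate 1, and without WT replicate 2 its HET day 3 value of -0.87 passed.

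**Figure D4:**
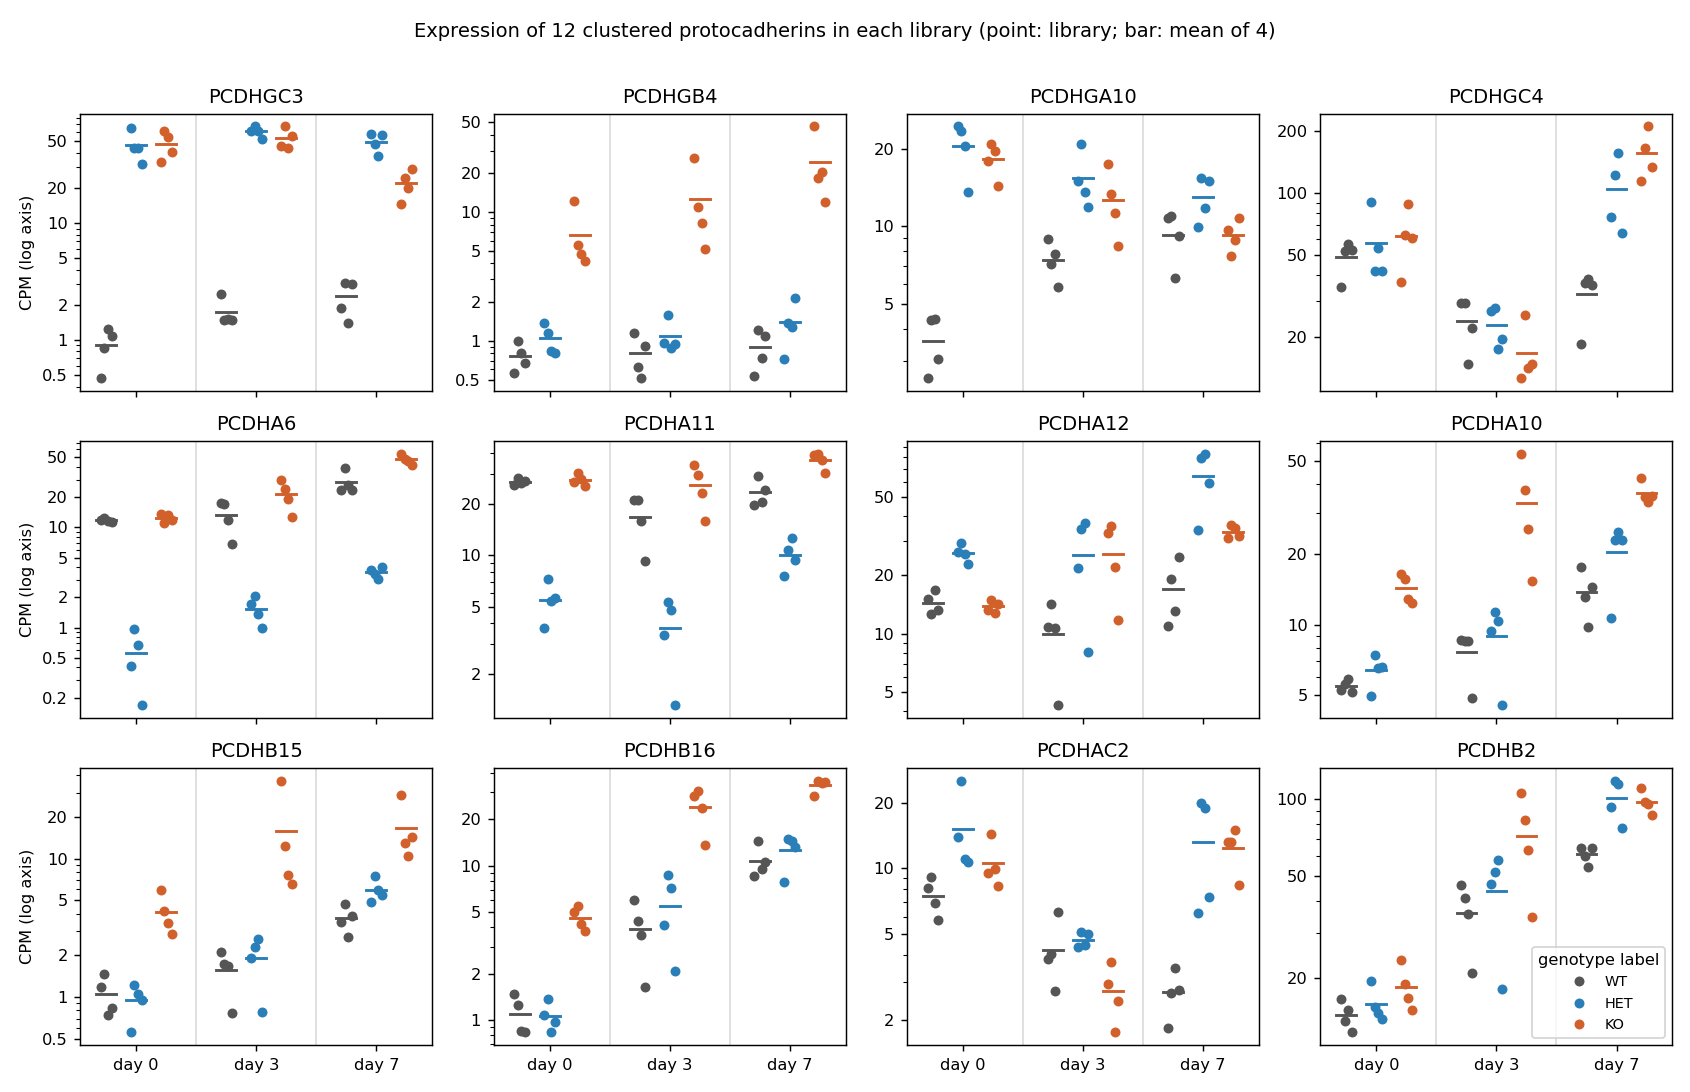
CPM of 12 members in each library (vertical log axes, one per member) by day and genotype label (horizontal axis); points are libraries and bars the means of 4. PCDHGC3 separates WT from both mutants, PCDHGB4, PCDHA10, PCDHB15 and PCDHB16 separate KO from the others, and PCDHA6 and PCDHA11 separate HET from the others.

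In the alpha array PCDHA6 and PCDHA11 were low in HET alone. PCDHA6 had 11.9, 12.5, 11.6 and 11.3 CPM in WT at day 0, 0.410, 0.971, 0.668 and 0.168 CPM in HET, and 13.6, 11.1, 13.3 and 11.9 CPM in KO. By day 7 it had 23.6, 39.2, 26.5 and 23.7 CPM in WT, 3.72, 3.44, 3.07 and 4.04 CPM in HET, and 54.5, 48.1, 46.4 and 42.1 CPM in KO. HET lay below every other library on both days, and KO lay with WT at day 0 and above it at day 7. The HET-WT log2 fold changes were -4.45 (SE 0.33), -3.09 (SE 0.3) and -3.01 (SE 0.2) at days 0, 3 and 7, and KO exceeded HET by 4.55, 3.78 and 3.77 (adjusted p = 5.04e-06, 2.13e-05 and 5.07e-07, edgeR).

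PCDHA11 had 26.0, 28.8, 26.6 and 27.5 CPM in WT at day 0, 3.75, 7.24, 5.43 and 5.60 CPM in HET, and 27.2, 30.7, 28.2 and 25.6 CPM in KO. Again only HET was low, with log2 fold changes of -2.30 (SE 0.15), -2.18 (SE 0.35) and -1.28 (SE 0.15) over the 3 days. PCDHA2 (-1.42, SE 0.28) and PCDHA3 (-1.64, SE 0.25) were also lower in HET at day 0 and not called on the later days. KO exceeded HET at all 3 days for PCDHA2, PCDHA6, PCDHA10 and PCDHA11.

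PCDHA12, downstream of PCDHA11 on the chromosome, went the other way in HET. It had 15.0, 12.6, 16.8 and 13.2 CPM in WT at day 0, 26.2, 29.2, 25.6 and 22.8 CPM in HET, and 13.2, 15.0, 12.8 and 14.3 CPM in KO, so that HET alone was high. At day 7 it had 10.98, 19.1, 13.1 and 24.6 CPM in WT, 34.0, 79.3, 83.7 and 58.8 CPM in HET, and 31.0, 35.98, 34.7 and 31.5 CPM in KO. By then both mutants were above WT without overlap. The HET-WT log2 fold changes were 0.86 (SE 0.11), 1.34 (SE 0.42, not called, adjusted p = 0.125) and 1.83 (SE 0.25), and the KO-WT ones -0.03, 1.35 (SE 0.42, with overlapping libraries) and 0.97 (SE 0.24).

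PCDHA10 was the alpha member called higher in KO on all 3 days. It had 5.27, 5.61, 5.86 and 5.18 CPM in WT at day 0, 4.98, 7.47, 6.51 and 6.64 CPM in HET, and 16.5, 15.7, 12.9 and 12.4 CPM in KO. At day 3 the WT libraries had 8.65, 8.56, 8.57 and 4.85 CPM and the KO libraries 54.0, 37.6, 25.8 and 15.4 CPM. KO was above WT on both days with no overlap, while WT and HET overlapped. The KO-WT log2 fold changes were 1.42 (SE 0.14), 2.09 (SE 0.32) and 1.41 (SE 0.21); the HET-WT ones were 0.24, 0.22 and 0.48, none called. The pseudogene PCDHA14 lies wholly inside exons of PCDHA10 (100% of its bases are shared), so counts of the pair are uncertain; PCDHA14 itself had at most 2.42 CPM at day 7 and was never called in these 6 comparisons.

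Among the remaining named alpha members, PCDHA4 rose in KO at day 3 (0.95, SE 0.28, adjusted p = 0.0266) and in HET at day 7 (0.50, SE 0.13). The KO call was lost without KO replicate 1, KO replicate 2, WT replicate 3 or WT replicate 4, with an adjusted p of up to 0.0851. PCDHA1 had 0.485 CPM in WT at day 7, 1.89 in HET and 1.61 in KO. Its calls (1.85, SE 0.56, and 1.69, SE 0.56) were lost when WT replicate 2, HET replicate 2 or 3, or KO replicate 2 or 3 was left out, and the HET one also without WT replicate 1 or 4, with adjusted p up to 0.116 and 0.0911.

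The beta genes, which share no exon bases with other members, had their largest called rises in KO. PCDHB15 had 1.19, 1.47, 0.748 and 0.836 CPM in WT at day 0, 0.556, 1.23, 1.04 and 0.952 CPM in HET, and 5.98, 4.20, 3.44 and 2.88 CPM in KO. At day 3 its KO libraries had 36.6, 12.3, 7.56 and 6.55 CPM, beside 0.765 to 2.12 CPM in WT. KO lay above WT and HET throughout, with a wide spread among the KO libraries at day 3. The KO-WT log2 fold changes were 1.98 (SE 0.31), 3.28 (SE 0.52) and 2.18 (SE 0.29), and KO exceeded HET by 2.15, 2.98 and 1.55 (adjusted p = 0.00312, 0.00583 and 0.0158, edgeR).

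PCDHB16 had 1.48, 1.25, 0.851 and 0.836 CPM in WT at day 0 and 4.996, 5.45, 4.20 and 3.77 CPM in KO, and at day 7 8.52, 14.4, 9.47 and 10.6 CPM in WT and 28.5, 35.6, 34.2 and 34.8 CPM in KO. WT and KO did not overlap on either day, and the HET libraries, at 0.835 to 1.38 and 7.84 to 14.9 CPM, lay with WT. The KO-WT log2 fold changes were 2.08 (SE 0.23), 2.63 (SE 0.41) and 1.63 (SE 0.17), with KO above HET by 2.12, 2.12 and 1.47. Genes annotated on the opposite strand overlap the spans of PCDHB15 and PCDHB16, and the use of strand in counting is not given in the sources used here. The same holds for most members, among them PCDHA6, PCDHA10, PCDHA11, PCDHA12, PCDHB12, PCDHB13, PCDHGB4, PCDHGA8 and PCDHGA10, but not for PCDHGC3, PCDHGC4 or PCDHGC5.

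PCDHB13 rose in KO by 1.86 (SE 0.35), 1.56 (SE 0.36) and 0.82 (SE 0.2), and PCDHB12, chosen for its calls on all 3 days after they were seen, by 1.05 (SE 0.24), 1.11 (SE 0.33) and 0.66 (SE 0.16). At day 3 the KO and WT libraries of both overlapped. KO against HET was called for neither on any day. PCDHB2, the leading beta gene, rose at day 7 in both lines (HET 0.67, SE 0.15; KO 0.68, SE 0.15) with 54.6 to 64.5 CPM in WT, 77.1 to 118 CPM in HET and 86.8 to 111 CPM in KO; at day 3 KO was also called (0.99, SE 0.33), with overlapping libraries. PCDHB14, which is among the beta members of highest TPM in WT at day 7, was not called in any of the 6 comparisons. PCDHB7 rose at day 7 in HET (0.87, SE 0.24) and KO (1.20, SE 0.24). Its HET call was lost without HET replicate 2 or 3 or WT replicate 1, 2 or 3, with an adjusted p of up to 0.0999.

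Falls in the gamma array were few. PCDHGB7 had 63.2, 76.2, 66.1 and 64.2 CPM in WT at day 0, 48.7, 40.1, 39.0 and 32.7 CPM in HET, and 23.4, 43.4, 52.3 and 42.2 CPM in KO. The mutant libraries were all below the WT ones, but the differences (-0.74, SE 0.19, and -0.72, SE 0.19) had adjusted p of 0.1 and 0.0901. HET was called lower at day 7 (-0.97, SE 0.26, adjusted p = 0.0239), where the libraries overlapped. PCDHGA9 was lower in KO at day 7, at 3.86 ± 0.281 CPM beside 6.36 ± 1.91 in WT (-0.72, SE 0.23). That call was lost without KO replicate 2, 3 or 4 or WT replicate 2 or 4, with an adjusted p of up to 0.077. PCDHGB6 rose in KO at day 3 (0.74, SE 0.23, adjusted p = 0.0341), where the libraries overlapped.

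The level of a gene sums its annotated transcripts, and for some members the mix of transcripts to which reads were assigned differed between the lines. The effective length of a gene was recovered here from its expected count, its FPKM and the library total. It is an abundance-weighted measure, in bases, of the length of those transcripts, and need not equal their full length. The transcript lengths given beside it come from the GENCODE annotation used here for positions. The authors' annotation is not given in the sources used here, so their transcripts may differ from these. PCDHGB6, whose 2 annotated transcripts have 4599 and 4601 bases, had group means between 4497 and 4521 bases. PCDHGC3 has 8 annotated transcripts of 632 to 4725 bases; its effective length was 1738 ± 399 bases in WT at day 0, 3902 ± 178 in HET and 4066 ± 52.3 in KO. At day 3 it was 2447 ± 227, 3809 ± 65.4 and 4082 ± 165 bases, and at day 7 2144 ± 312, 4023 ± 325 and 3309 ± 378 bases. Mutant and WT libraries did not overlap on any day, so the WT reads of PCDHGC3 were assigned on average to shorter transcripts. Its share of the gamma array in WT at day 0 was 1.02% by TPM and 0.431% by counts, compared with 17.4% and 17.1% in HET.

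PCDHA10, with transcripts of 3788, 5254 and 12358 bases, had an effective length of 10330 ± 1010 bases in WT at day 0, 11590 ± 590 in HET and 7601 ± 1230 in KO, and of 11000 ± 868, 11680 ± 417 and 7366 ± 642 bases at day 7. KO was shorter than WT and HET at day 7 without overlap. PCDHA11, with transcripts of 700, 3418 and 6115 bases, was at 4540 ± 305 bases in WT and 4499 ± 285 in KO at day 0 but at 3150 ± 4.13 in HET. PCDHA6 was at 3785 ± 286 bases in WT, 2484 ± 177 in HET and 3904 ± 286 in KO at day 3. Reads of the shared constant exons are divided among isoforms by the authors' software, and the part of that division in these lengths was not tested; the beta gene PCDHB15, with no shared bases, stayed between 3671 and 3726 bases in every group mean.

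**Figure D5:**
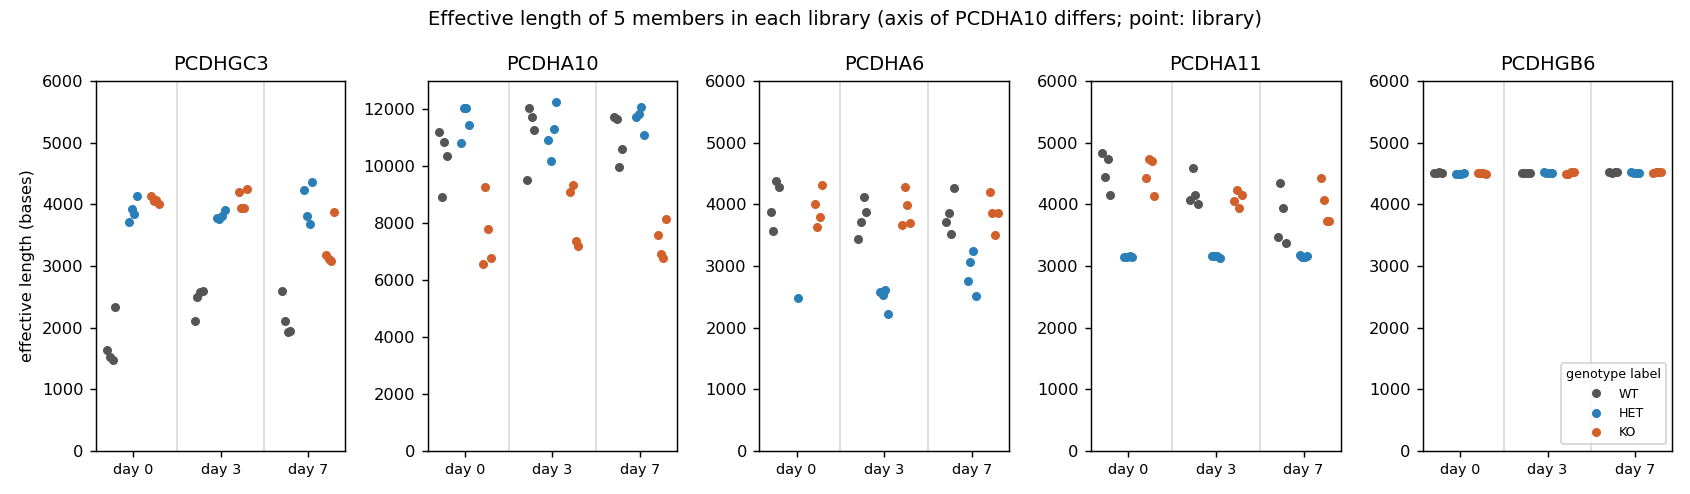
Effective length in bases (vertical axis, from 0; the axis of PCDHA10 is longer) of 5 members in each library with enough counts, by day and genotype label (horizontal axis). PCDHGC3 is shorter in WT, PCDHA10 in KO, and PCDHA6 and PCDHA11 in HET, while PCDHGB6 does not move.

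Of 11 cohesin, CTCF and loop factors, 1 was called higher in HET at day 0 and at day 3, and 2 higher and 1 lower at day 7. Of all genes, 1.22%, 2.52% and 8.31% were called higher in HET at days 0, 3 and 7, and 6.1% lower at day 7. STAG2, a cohesin subunit, was the one called on all 3 days: it had 226 ± 18.2 CPM in WT and 467 ± 25.0 in HET at day 0, 152 ± 22.8 and 280 ± 59.5 at day 3, and 83.1 ± 22.8 and 149 ± 35.9 at day 7 (SD, n = 4). Its log2 fold changes in HET were 1.06 (SE 0.07), 0.88 (SE 0.17) and 0.77 (SE 0.19), and in KO -0.03, -0.35 and -0.49, none called. SMC1A was higher (0.65, SE 0.16) and MAU2 lower (-0.49, SE 0.14) in HET at day 7. In KO, 0 of the 11 were called at day 0 by edgeR, by DESeq2 or at an unadjusted p under 0.05. At day 3 SMC3 was lower (-0.72, SE 0.22), where 8.93% of all genes were called lower. CTCF had a log2 fold change between -0.23 and 0.06 in the 6 comparisons. At day 7 in KO, 2 of the 11 rose, SMC1A (0.89, SE 0.16) and PDS5B (0.66, SE 0.21), where 17.0% of all genes were called higher. Of 13 DNA methylation and silencing factors 0 were called by edgeR or DESeq2 in either line at day 0, where 1 in HET and 2 in KO were at an unadjusted p under 0.05. Of all genes, 1.63% in HET and 2.08% in KO were called either way at day 0. SMCHD1, which is known to silence protocadherin clusters, ranged from -0.45 to 0.20 and was not called. In KO at day 7 DNMT3B, a DNA methyltransferase that methylates protocadherin promoters, was higher by 0.74 (SE 0.26, adjusted p = 0.0408) and TET3, which oxidises methylated cytosine, by 1.00 (SE 0.19). These were 2 of the 13, again where 17.0% of all genes were called higher. During WT induction from day 0 to day 3, 9 of the 11 loop factors and 8 of the 13 silencing factors fell, where 28.7% of all genes were called lower and 60.0% either way, DNMT3B by 3.86 (SE 0.25).

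The list of 22 neighbours held TAF7, which sits between the beta and gamma arrays (log2 between -0.01 and 0.36, none called), and pseudogenes with beta and gamma protocadherin names. At day 0, 0 of 17 tested were called in either line by edgeR or DESeq2 (2 in each at an unadjusted p under 0.05), where edgeR called 1.63% (HET) and 2.08% (KO) of all genes. At day 7 PCDH1 (HET 2.25, SE 0.26; KO 3.06, SE 0.27) and RELL2 (HET 0.86, SE 0.2; KO 1.01, SE 0.2) were called higher in both, 2 of 22 where 8.31% and 17.0% of all genes were called higher. PCDH1 is also counted among the non-clustered protocadherins. Non-clustered protocadherins, single genes outside the arrays, had 0 calls of 12 in HET (3 at an unadjusted p under 0.05, 2 by DESeq2) and 1 in KO at day 0, and 8 higher of 12 in KO at day 3, where 21.6% of all genes were called either way. At day 7, where 14.4% of all genes were called in HET and 32.6% in KO, 6 were higher and 2 lower in HET and 7 higher and 2 lower in KO, PCDH7 rising by 4.18 (SE 0.76) and 5.02 (SE 0.79) and PCDH15 falling by 2.77 (SE 0.68) and 3.51 (SE 0.7). Among 16 cytoplasmic partners and processing enzymes, 0 were called at day 0 by edgeR, by DESeq2 or at an unadjusted p under 0.05. At day 7 in KO, 3 of the 16 were called higher (CYFIP2, WASF1 and ABI2) and 2 lower (AXIN1 and CYFIP1). Of all genes, 17.0% were called higher and 15.6% lower there. CYFIP2 (1.22, SE 0.33) and WASF1 (1.28, SE 0.21), subunits of the WAVE actin regulator that binds protocadherin tails, rose. CYFIP1, the alternative to CYFIP2 in that complex, fell by 1.59 (SE 0.23).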

How the data were processed

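Gene tables of 36 libraries were used. The authors deposited expected counts, whole numbers in every cell, with TPM and FPKM for the same genes; per the submitters' processing notes the tools included cutadapt 4.8, STAR 2.7.8a and RSEM 1.3.3, on GRCh38. The annotation and the use of strand are not given in the sources used here. The deposited TPM and FPKM values were used for shares and effective lengths (FPKM of at least 0.2 and a count of at least 10). From the deposited expected counts, 4 reporter rows were left out (at most 0.0171% of a library). GENCODE 29 gave positions, exons and transcripts.

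Every gene was fitted with edgeR 4.0.16 (R 4.3.3; filterByExpr, TMM, quasi-likelihood F test, Benjamini-Hochberg over all genes, threshold 0.05): the 12 libraries of a day for genotypes, the 12 WT libraries for days, all 36 for the change of the KO-WT difference. CPM are counts over the library total. DESeq2 1.42.0, library-size scaling, no low-count filter, limma 3.58.1 on log2(TPM + 1) with TPM of at least 0.1 in 4 libraries, the structural RNA share as covariate, the replicate number as block and leaving out each library were alternatives. The edgeR fits were checked on simulated counts.

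Same-numbered libraries deviated together (every pair's correlation over 0.1) for KO and WT at day 0 (0.287 to 0.698) and day 3 (0.122 to 0.591) and HET and WT at day 3 (0.168 to 0.801), a pairing read from the data, not from the labels. In that order, 8, 6 and 4 of 8 libraries correlated best with their own number, so the pairing was loose at day 3. The members and lists were chosen with earlier results of these data known. Members named were the 5 C-types, the 2 of highest WT day 7 TPM in each array, and in each array and comparison with WT up to 3 rises and 3 falls of largest fold change among called members of at least 1 CPM whose groups did not overlap. RAI1, CTCF, SMCHD1, DNMT3B and TAF7 were always named, with up to 3 called genes of each list in KO at day 7. PCDHA2, PCDHA14, PCDHB1, PCDHB12, PCDHGA2, STAG2, SMC3, MAU2, ABI2 and AXIN1 were named outside that rule, after their values had been seen.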

Additional observations from a re-analysis of the deposited data

Results flagged for a closer look

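In 10 of 243 groups of 4 libraries, 1 library stood far from the others; chance flags about 1 in 20 groups, or 12.2 here, so the number is no larger than that. WT replicate 4 of day 3 was low for PCDHA10 (4.85 CPM, others 8.56 to 8.65) and for PCDHGA8 (0.239 CPM, others 0.721 to 0.725), and WT replicate 1 of day 3 was high for PCDHGC3 (2.49 CPM, others 1.47 to 1.52). WT replicate 1 of day 7 was low for PCDHGC4 (18.6 CPM, others 36.1 to 38.6). HET replicate 1 of day 7 was low for PCDHA10 (10.7 CPM, others 23.1 to 25.0), and HET replicate 2 of day 0 was high for PCDHAC1 (14.4 CPM, others 5.60 to 6.91). HET replicate 2 of day 3 was high for PCDHGB4 (1.59 CPM, others 0.882 to 0.963) and PCDHGB7 (43.8 CPM, others 24.03 to 27.4). KO replicate 2 of day 3 was high for PCDHGA9 (6.88 CPM, others 4.36 to 4.78) and PCDHGC4 (25.7 CPM, others 12.7 to 14.8).

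The KO-WT difference changed between days, by edgeR's test of that change, for 8 member and interval pairs. From day 0 to day 3, where 8.55% of all genes passed, it grew for PCDHA12 (log2 1.43, SE 0.44, adjusted p = 0.0399) and shrank for PCDHGA10 (-1.55, SE 0.28, adjusted p = 0.0005). The PCDHA12 call was lost in 14 of 16 fits that left out 1 library, all but those without WT day 3 replicate 2 or KO day 3 replicate 4 (log2 1.21 to 1.65, adjusted p up to 0.104), and with library-size scaling (0.0752). From day 3 to day 7, where 18.5% passed, it grew for PCDHAC2 (2.83, SE 0.45), PCDHGC4 (2.72, SE 0.42) and PCDHGC5 (1.07, SE 0.34) and was lower for PCDHA4 (-0.79, SE 0.28), PCDHGA10 (-0.79, SE 0.28) and PCDHGC3 (-1.74, SE 0.38). On leaving out 1 library the calls of PCDHAC2, PCDHGC3 and PCDHGC4 held in 16 of 16 fits, that of PCDHGC5 in 11, of PCDHGA10 in 4 and of PCDHA4 in 2 (those without WT day 7 replicate 4 or KO day 3 replicate 4; adjusted p otherwise up to 0.159, and 0.107 with library-size scaling).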

How the results depend on the processing

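Of the 63 member differences named, DESeq2 kept the side of the threshold for 61, library size alone for 62 and no low-count filter for 61. The replicate block kept it for 60 and the structural RNA covariate for 61. Direction was compared only where either fit made a call, and there these settings kept it. Counts of called members that moved by over 1.5 times were, with DESeq2, 7 in HET against WT at day 3 and 14 in KO against HET at day 3; with library size alone, 13 in KO against WT at day 3 and 1 for the day 0 to 3 change of the KO-WT difference; and with the replicate block, 9 in HET and 35 in KO against WT at day 3 and 20 in KO against HET at day 3, where the numbers did not pair. The block changed the count by over 1.5 times in no other comparison. With limma on log2(TPM + 1), the counts were 4, 1 and 1 in HET against WT at days 0, 3 and 7, 5 and 6 in KO against WT at days 3 and 7, 5, 0 and 2 in KO against HET at days 0, 3 and 7, 7 (1 higher, 6 lower) for WT day 3 against day 0 and 4 for WT day 7 against day 3. On that scale 39 of the named differences were as before and 22 lost the call, and PCDHA11 in HET at day 7 had 0.00 and counts as reversed. All genes' median shifted on that scale by up to 0.39 (HET against WT, day 7) and by -0.312 (WT day 3 against day 0). By shares of counts, choice distances moved for KO alpha at day 0 (10.5%) and day 3 (12.2%) and HET beta at day 0 (7.68%), with the overlap with WT as by TPM in these 3.

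Leaving out each library in turn gave, for HET against WT, 6 to 7, 4 to 6 and 7 to 16 calls at days 0, 3 and 7; for KO against WT, 7 to 8, 9 to 28 and 18 to 22; for KO against HET, 10, 7 to 13 (13 without KO replicate 4) and 5 to 9 (5 without HET replicate 4); for WT over time, 27 to 35 and 28 to 36; and for the change of the KO-WT difference, 1 to 4 and 3 to 11, with the libraries named in the report. Choice distances ranged, at days 0, 3 and 7, over 34.9% to 36.6%, 27.3% to 29.8% and 26.1% to 28.5% (alpha HET), 9.08% to 10.3%, 10.1% to 11.3% and 10.7% to 12.4% (alpha KO), 9.52% to 10.5%, 6.76% to 8.61% and 5.88% to 8.65% (beta HET), 15.1% to 17.7%, 13.4% to 15.6% and 10.1% to 12.2% (beta KO), 23.4% to 25.1%, 21.0% to 22.7% and 14.2% to 18.2% (gamma HET) and 24.7% to 27.2%, 20.6% to 21.8% and 21.7% to 23.7% (gamma KO). Causes were not tested.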
